A study of Mus musculus with 138 samples.

Results

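The Obox genes encode homeodomain transcription factors that are used in the oocyte and early embryo of the mouse. Obox1, Obox2, Obox3, Obox5 and Obox6 were taken by name, and these 5 of the 25900 genes in the count tables are the only ones whose name begins with Obox. The question they bear on is how loss of SMARCA5, the ATPase of ISWI chromatin remodelling complexes, affects RNA of 2-cell embryos, the stage of the major activation of the mouse embryo's own genome.

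Polyadenylated RNA was read from single wells, each with a 2-cell embryo, as the RNA part of scNMT-seq. In the maternal deletion experiment, embryos of genotype Smarca5 +/-, from mothers lacking Smarca5 mated with WT males, were compared with embryos of genotype Smarca5 +/+; the titles of both groups name matKO females. In the TrimAway experiment, WT zygotes were injected with an antibody to SMARCA5 (a-Smarca5), or with IgG as the control, or were left uninjected, and were collected as 2-cell embryos no less than a day after injection. TrimAway directs a protein bound by an injected antibody to degradation through TRIM21. The libraries kept for comparison were 22 labelled wild type, 28 labelled maternal deletion, 15 labelled uninjected, 20 labelled IgG and 31 labelled anti-SMARCA5.

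Obox genes lie in a rodent cluster that arose by repeated duplication and holds many pseudogenes. Obox1, Obox2 and Obox5 RNA is stored in the oocyte and handed to the embryo, whereas Obox3 is known as a gene that the embryo itself transcribes around the time its genome is activated. OBOX proteins act redundantly in genome activation, where they help RNA polymerase II reach its target promoters. Obox6 is also transcribed in early embryos and is known for promoting reprogramming of somatic cells.

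All 5 genes lie on chromosome 7 (GRCm38). Obox2 (ENSMUSG00000074369) was counted over chr7:15354037-15398545 on the plus strand and Obox1 (ENSMUSG00000054310) over chr7:15512340-15556866 on the plus strand. Obox3 (ENSMUSG00000066772) spans chr7:15479825-15639902 on the minus strand. Obox5 (ENSMUSG00000074366) lies at chr7:15750134-15759800 on the plus strand and Obox6 (ENSMUSG00000041583) at chr7:15833246-15839678 on the minus strand. No row of another gene lies between the first and the last of them in the tables. GENCODE M21 annotates 7 protein-coding Obox genes and 46 Obox pseudogenes on this chromosome.

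The members are so alike that reads can be shared between them, which limits how their counts can be separated. The stretches below are 90 coding bases from 1 GENCODE transcript of each gene on GRCm38, 5′ to 3′, beginning at coding base 85, or 112 in Obox6. They are shown because they make the likeness visible. Capitals mark bases that differ from Obox1.

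Obox1: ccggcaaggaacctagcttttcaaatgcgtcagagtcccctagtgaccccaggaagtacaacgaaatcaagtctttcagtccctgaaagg

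Obox2: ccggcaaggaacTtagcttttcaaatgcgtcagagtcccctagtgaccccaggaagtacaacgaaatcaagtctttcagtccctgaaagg

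Obox5: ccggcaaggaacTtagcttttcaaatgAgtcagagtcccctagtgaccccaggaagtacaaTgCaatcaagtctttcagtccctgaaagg

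Obox3: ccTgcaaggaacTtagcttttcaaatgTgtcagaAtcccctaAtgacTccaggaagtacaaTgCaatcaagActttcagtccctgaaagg

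Obox6: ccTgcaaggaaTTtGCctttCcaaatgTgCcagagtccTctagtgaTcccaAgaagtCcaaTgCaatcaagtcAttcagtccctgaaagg

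Over this stretch, 71 of 90 bases are identical in all 5 genes, and Obox2, Obox5, Obox3 and Obox6 differ from Obox1 at 1, 4, 9 and 15 bases. Over all aligned coding bases, Obox1 and Obox2 are 98.7% identical, with 6 of 453 bases different. Obox1 and Obox5 are 95.6% identical, Obox3 and Obox5 94.2%, and Obox6 is 81.5% to 83.4% identical to the others. Exact matches were searched in GENCODE transcripts only, so inexact matches and those elsewhere in the genome are not counted. A read of 100 bases would match another gene's transcript at 40.9% of its possible positions in Obox1 and 42.5% of those in Obox2. Each time the match was in the other of this pair. The share was 19.9% for Obox3, all of it with pseudogenes, 0.115% for Obox5 and 0% for Obox6. For a read of 50 bases the shares were higher, at 59.3% for Obox1, 63.0% for Obox2, 40.6% for Obox3, 13.02% for Obox5, mostly with Obox7, and 5.02% for Obox6, all of it with a pseudogene. The read length is not given in the sources used here. How the authors treated reads with several matches is not given in the sources used here, so the split between Obox1 and Obox2 is uncertain, and Obox3 counts could hold or lack reads of its pseudogenes, as could a smaller part of those of Obox5 and Obox6.

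The Obox3 row also contains the whole Obox1 row on the opposite strand, and the use of strand in counting is not given in the sources used here. In the 31 kept libraries with 0 Obox3 counts, Obox1 had a median of 179 counts and at most 2815, so Obox1 reads were not counted toward Obox3 in these libraries.

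DNA upstream of the RefSeq start is shown because it is alike in Obox1, Obox3 and Obox5. Across libraries the RNA level of Obox3 did not go with those of Obox1 and Obox5. These stretches lie within the counted rows of Obox1 and Obox5 and overlap that of Obox3. Whether the counted RNA begins at the RefSeq starts was not tested. The RefSeq promoter table (GRCm38.p6) holds 4 of the 5 genes. Each line gives 123 bases in gene orientation, at chr7:15547124-15547246 (plus strand) for Obox1, chr7:15750225-15750347 (plus strand) for Obox5 and chr7:15639799-15639921 (minus strand) for Obox3. Capitals mark TATATAAGG, a TATA-box-like run of 9 letters. Obox2 also has a promoter window, but it lacks this run in gene orientation in the 250 bases before its start. No stretch is therefore printed for Obox2.

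Obox1: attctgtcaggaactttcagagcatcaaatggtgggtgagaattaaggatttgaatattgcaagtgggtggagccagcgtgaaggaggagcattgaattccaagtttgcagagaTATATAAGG

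Obox5: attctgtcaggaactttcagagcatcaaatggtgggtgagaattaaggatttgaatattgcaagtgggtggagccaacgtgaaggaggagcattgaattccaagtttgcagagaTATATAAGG

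Obox3: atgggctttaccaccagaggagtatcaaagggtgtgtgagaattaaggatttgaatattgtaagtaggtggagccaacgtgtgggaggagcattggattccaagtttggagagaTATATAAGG

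The stretches of Obox1 and Obox5 are the same at 122 of 123 bases, and that of Obox3 is the same as Obox1 at 99 and as Obox5 at 100. The capital run begins 19 bases before the RefSeq start of Obox1, 30 before that of Obox3 and 31 before that of Obox5. On either strand it is present in 101 of 32851 promoter windows of 300 bases in the table, or 0.307%.

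Depth and label checks were as follows. Kept libraries held 109007 to 12004992 counts, with group medians of 545264.5 for wild type, 1618485.5 for maternal deletion, 1460667 for uninjected, 1708008 for IgG and 1481635 for anti-SMARCA5. The labels' design text calls the replicates technical, each of them a pool or collection of embryos, so p-values measure the spread between these wells. In the deletion experiment each replicate was sequenced on a lane of its own, and the effects of the lane and of the collection cannot be told apart. Levels are counts scaled to library size (CPM) with TMM, edgeR's correction for library composition, within each experiment. Smarca5 RNA had medians of 362 CPM in wild type (153 to 794) and 94.4 CPM in maternal deletion (3.31 to 322), a fall of 2.06 on the log2 scale (SE 0.31, edgeR adjusted p = 2.63e-07). The 2-cell stage list (38 genes) had summed medians of 3127 CPM in wild type, 713 in maternal deletion, 2198 in uninjected, 3274 in IgG and 2618 in anti-SMARCA5. Cumulus and granulosa cell markers (16 genes) summed to medians of 25.6 to 67.4 CPM. In the 3 wells without an embryo, Obox1, Obox3 and Obox6 had 0 counts, Obox2 had 2 and Obox5 had 7 among 3151 counts in all.

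3 libraries of replicate 2 stood apart from their labels. Well A04, labelled maternal deletion, held 22.4 CPM of Gdf9, an oocyte growth factor gene, the lowest of its group, whose median was 4757 CPM. Its Smarca5 RNA was 319 CPM, a value that does not single it out, since well H09 of replicate 1 held 322 CPM, with 1076 CPM of Gdf9, 0 of Obox3 and 111 of Obox6. Wells G05 and H05, labelled wild type, held 153 and 172 CPM of Smarca5 and 627 and 287 CPM of Gdf9, against a wild-type Gdf9 median of 52.2 CPM. They were kept in their labelled groups, and values without them are given beside the results.

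Per kilobase of transcript and over all replicates together, Obox6 had the highest median and Obox5 the next in wild type, uninjected, IgG and anti-SMARCA5 embryos, but the order differed between replicates. In wild type, Obox5 lay above Obox6 in replicate 1, with 579 against 229 CPM per kilobase, and below it in replicate 2, with 36.7 against 578. In anti-SMARCA5 embryos Obox5 lay above Obox6 in replicate 3 only, with 169 against 58.6 CPM per kilobase. Wild-type medians over both replicates were 374 CPM per kilobase for Obox6, 170 for Obox5, 33.1 for Obox3, 12.9 for Obox1 and 8.95 for Obox2. In uninjected embryos, normalized separately, the same order held with 254, 72.4, 15.6, 10.8 and 9.03 CPM per kilobase. In maternal deletion embryos the order was different, with 211 for Obox5, 76.2 for Obox1, 50.7 for Obox2, 19.9 for Obox6 and 0 for Obox3.

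**Figure D1:**
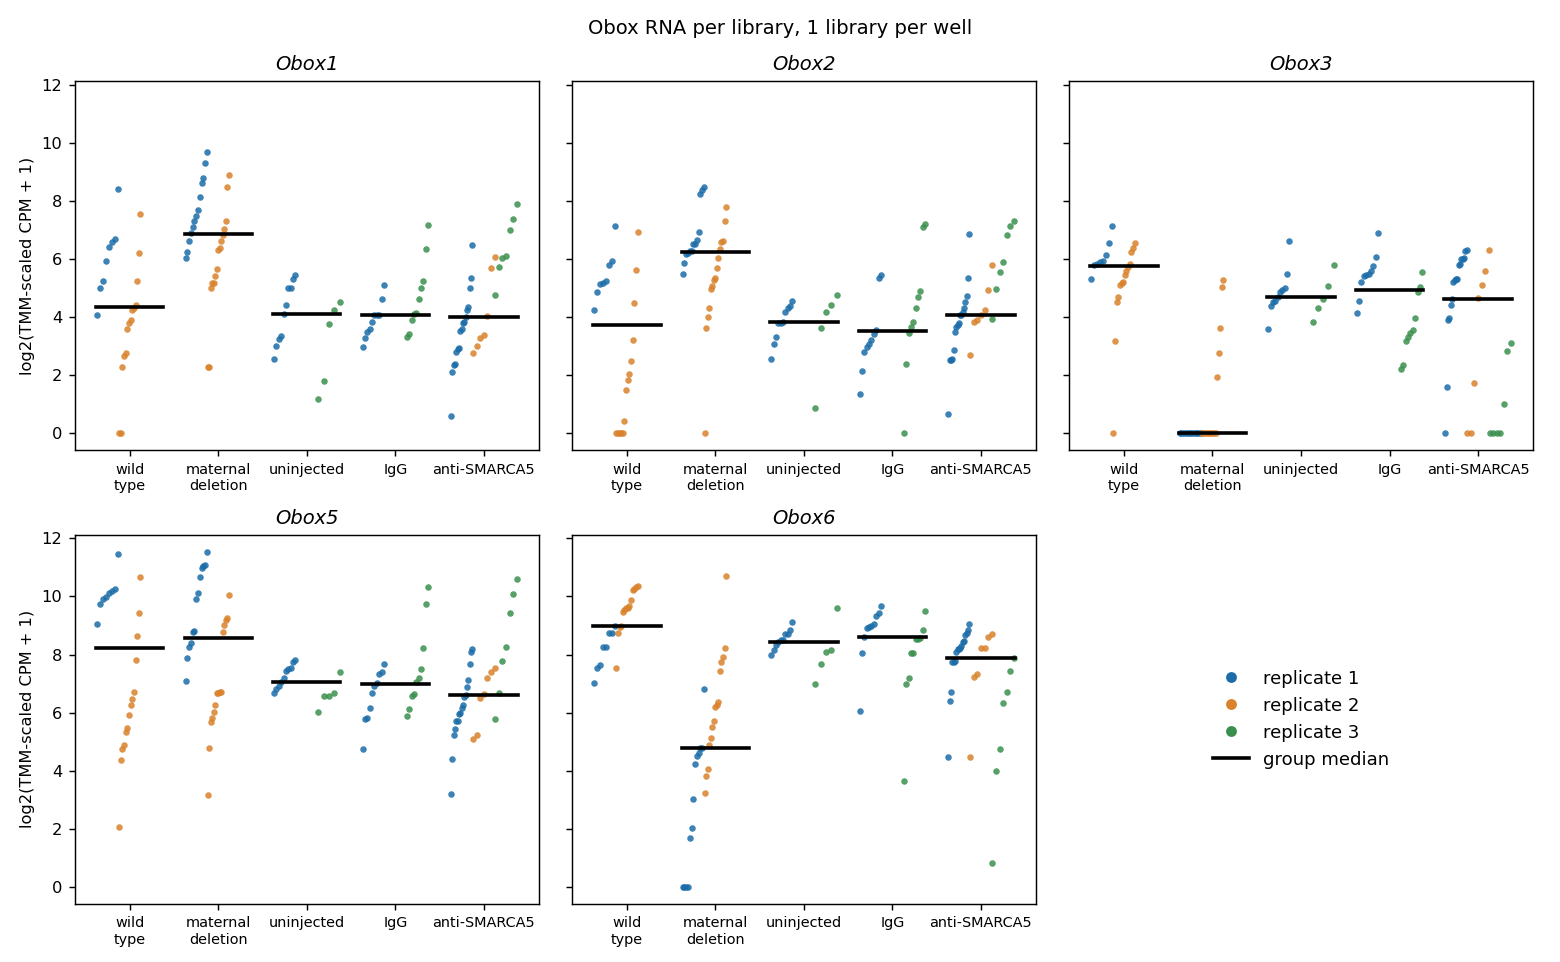
Level of each Obox gene on a log2(TMM-scaled CPM + 1) axis, 1 point per kept library, coloured by replicate, with a black line at the group median. Obox3 lies at 0 in 23 of 28 maternal deletion libraries, and Obox5 and Obox6 differ between replicates 1 and 2 of the wild type.

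In maternal deletion embryos, RNA of the 2 members Obox3 and Obox6 was lower than in wild type, RNA of Obox1 and Obox2 was higher, and Obox5 did not pass the test. These 4 calls among 5 members stand against a background in which 56.6% of the 8518 genes tested were called, 30.3% higher and 26.4% lower. The median change of all genes was 0.18 on the log2 scale with TMM scaling and -0.036 with library totals only. The directions of the 4 called members were the same under both scalings.

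Obox1, an oocyte-stored member, ranged in wild type from 0 CPM through a median of 19.6 to 341, and in maternal deletion from 3.89 through 115 to 818. The groups overlapped, but 26 of 28 maternal deletion libraries lay above the wild-type median and 6 above every wild-type library. By edgeR, Obox1 rose by 1.83 on the log2 scale (SE 0.53, adjusted p = 0.00295). Each well holds a whole embryo, so a difference in the number of cells and one in RNA per cell cannot be told apart in such libraries.

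Obox2, its near-identical partner, ranged from 0 through 13.1 to 140 CPM in wild type and from 0 through 73.9 to 358 CPM in maternal deletion. As for Obox1, 26 of 28 maternal deletion libraries were above the wild-type median, with 5 above the highest wild-type library. The log2 fold change was 1.81 (SE 0.55, adjusted p = 0.00494). The rises of Obox1 and Obox2 are not independent of each other, because their reads can be exchanged.

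Both rises were seen within each collection. In replicate 1, the Obox1 median was 72.3 CPM in 8 wild-type and 177 CPM in 13 maternal deletion libraries, and in replicate 2 it was 13.4 CPM in 14 and 78.9 CPM in 15. The Obox2 medians were 35.9 and 89.6 CPM in replicate 1 and 2.17 and 39.8 CPM in replicate 2. Without wells A04, G05 and H05 the changes were 2.05 for Obox1 (adjusted p = 0.00132) and 2.12 for Obox2 (adjusted p = 0.0016).

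Obox5, the most abundant oocyte-stored member, ranged in wild type from 3.15 CPM through a median of 311 to 2851, and in maternal deletion from 7.98 through 386 to 2993. The groups lay over the same range, and 15 of 28 maternal deletion libraries were above the wild-type median. The log2 fold change was 0.17 (SE 0.53, adjusted p = 0.795), and its sign was not stable, with -0.099 under library totals only.

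The Obox5 medians lay farther apart between collections than between genotypes, a difference that was not tested. In replicate 1 the medians were 1061 CPM in wild type (536 to 2851) and 973 CPM in maternal deletion (134 to 2993). In replicate 2 they were 67.2 CPM in wild type (3.15 to 1637) and 102 CPM in maternal deletion (7.98 to 1049). The highest wild-type library of replicate 2 was well G05 with 1637 CPM, and well H05 had 399 CPM.

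Obox3, which the embryo itself transcribes, was present in nearly all wild-type libraries and in few maternal deletion libraries. Wild-type libraries ranged from 0 CPM through a median of 53.1 to 141, and 21 of 22 had more than 3 counts. Maternal deletion libraries ranged from 0 through a median of 0 to 37.5 CPM, and 23 of 28 had no Obox3 count. The log2 fold change was -3.87 (SE 0.75, adjusted p = 2.75e-05), or -4.40 without wells A04, G05 and H05.

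All 13 maternal deletion libraries of replicate 1 had 0 counts, and the 8 wild-type libraries beside them ranged from 38.6 to 141 CPM, so these groups did not overlap. Such a separation with the deletion group lower was found for 3.45% of the genes tested. With 3 counts in each library taken as the limit for a count of 0, or 5.16 CPM on average, Obox3 was at least 13.8-fold lower in replicate 1. This bound is approximate, as counts were not independent single events. Over all genes and kept libraries, counts of 3 were more frequent than counts of 2 (84269 against 30228). In replicate 2, 10 of 15 maternal deletion libraries had 0 counts and the other 5 held 37.5 (well B04), 31.8 (A04), 11.3 (C05), 5.73 (D04) and 2.86 CPM (E05), against a wild-type median of 39.4 CPM (0 to 92.2). Well A04 is the library described above as standing apart from its label. The deletion's effect on Obox3 differed between collections, by 7.72 on the log2 scale (SE 1.96, adjusted p = 0.0444), with 0.763% of genes called in that test. This fitted size rests on a group with 0 counts throughout and is no measure of a fold, and the call was lost at a depth minimum of 500000 counts (adjusted p = 0.311).

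Obox6 lay lower after the deletion in both collections. It ranged from 130 CPM through a median of 503 to 1312 in wild type and from 0 through 26.7 to 1673 in maternal deletion. Of the 28 maternal deletion libraries, 27 lay below the wild-type median and 23 below every wild-type library. The one above all wild-type libraries was well A04. The log2 fold change was -2.39 (SE 0.55, adjusted p = 0.000269), and -3.45 without wells A04, G05 and H05 (adjusted p = 5.82e-08).

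In replicate 1, Obox6 did not overlap between the groups, with 130 to 503 CPM in wild type and 0 to 111 CPM in maternal deletion, whose mean was 16.8-fold lower. Such a separation with the deletion group lower was found for 3.45% of the genes tested. In replicate 2, the medians were 777 CPM (183 to 1312) and 72.7 CPM (8.44 to 1673), and 11 of 15 maternal deletion libraries lay below the lowest wild-type library. The difference in effect between collections was 1.98 on the log2 scale (SE 0.90, adjusted p = 0.258) and was not called.

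The make-up of Obox RNA within a library needs no scaling between libraries. Obox3 and Obox6 together made up a median of 65.1% of the counts of the 5 genes in wild type and 3.29% in maternal deletion. The wild-type value pools 2 collections that differed. In replicate 1 the median shares were 24.8% in wild type (5.35% to 45.5%) and 0.794% in maternal deletion (0% to 23.1%). In replicate 2 they were 92.8% (10.9% to 97.6%) and 30.3% (0.536% to 93.6%). The highest maternal deletion share of replicate 2 was in well A04 and the lowest wild-type share in well G05. In TrimAway, the replicate 3 medians were 67.7% in uninjected, 62.6% in IgG and 20.2% in anti-SMARCA5 embryos, and 1 of 7 anti-SMARCA5 libraries was above 50%. In replicate 1 they were 70.2%, 77.9% and 81.1%, so the low anti-SMARCA5 share was seen in replicate 3 and not in replicate 1. The anti-SMARCA5 libraries of replicate 2 had a median of 72.2%.

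In the deletion experiment, the summed level of the 5 genes fell within overlapping ranges, with medians of 1271 CPM in wild type (618 to 3520) and 674 CPM in maternal deletion (163 to 3818).

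**Figure D2:**
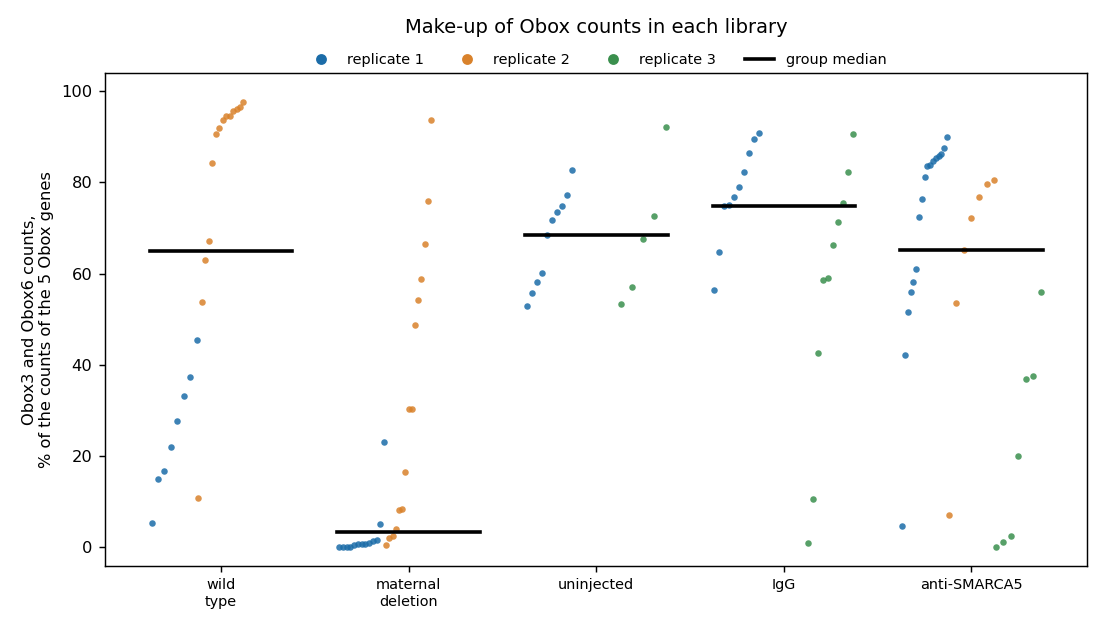
Share of Obox3 and Obox6 in the counts of the 5 Obox genes, in percent, for each kept library, coloured by replicate, with the group median as a black line. The medians are 65.1% in wild type, 3.29% in maternal deletion, 68.5% in uninjected, 74.9% in IgG and 65.1% in anti-SMARCA5 embryos. The wild-type medians are 24.8% in replicate 1 and 92.8% in replicate 2. The anti-SMARCA5 libraries of replicate 3 lie lower, with a median of 20.2%.

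Oocyte RNA moved with these changes. Of 30 oocyte genes tested, 23 were higher and 1 lower in maternal deletion, with a median log2 change of 1.74 beside 0.18 for all genes. Gdf9 rose by 5.81 (SE 0.54, adjusted p = 3.80e-12), Oog3, another oocyte gene, by 1.37 and Tcl1, a kinase coactivator gene, by 1.22. Dppa3, a maternal factor that protects methylation, fell by 1.50. The summed oocyte list ranged from 4611 to 41755 CPM in wild type and from 9312 to 63294 CPM in maternal deletion. It also differed between collections. In replicate 1 its medians were 20824 CPM in wild type (11592 to 41755) and 42409 CPM in maternal deletion. In replicate 2 they were 6061 and 24011 CPM. Its part in the Obox changes was not tested.

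Genes known as genome activation factors, apart from the Obox members, changed in both directions. Of 23 tested, 14 were lower and 3 higher, with a median log2 change of -1.15. Dppa2, an activator of early embryonic genes, fell by 2.51 (SE 0.44, adjusted p = 5.64e-06) and Kdm5b, a demethylase of histone H3, by 2.34 (SE 0.41, adjusted p = 5.53e-06). Yap1, a Hippo pathway coactivator, changed by 0.43 (adjusted p = 0.222) and Klf17, a Kruppel-like factor, by -0.077 (adjusted p = 0.762), and neither was called. Of 25 tested genes of the 2-cell stage list, 13 were lower and 1 higher, with a median of -1.75. Sp110, a nuclear body gene, fell by 2.42 (adjusted p = 5.89e-07), while Arg2, an arginase, changed by -0.34 (adjusted p = 0.493).

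The tables list a further family gene, Obox7, under the name Gm4745 (ENSMUSG00000055942, chr7:14659708-14665995). It was found by its identifier and named after its values were seen. Its coding sequence is 96.0% identical to Obox5 and 93.8% to Obox1. It had medians of 6.34 CPM in wild type (0 to 35.5) and 49.2 CPM in maternal deletion (0 to 286), and rose by 2.18 on the log2 scale (SE 0.67, adjusted p = 0.0051, edgeR). Obox7 RNA is stored in the oocyte, as is that of Obox1 and Obox2.

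In the TrimAway experiment, none of the 5 Obox genes passed the test between anti-SMARCA5 and IgG embryos, where 3.03% of 10447 genes were called. Obox6 was the member nearest to it. RNA of Trim21, the ubiquitin ligase on which TrimAway depends, was at 0 in all 10 IgG libraries of replicate 1, whereas 8 of 10 IgG libraries of replicate 3 and 30 of 31 anti-SMARCA5 libraries had more than 3 counts. Replicate 2 had no IgG library above the depth minimum.

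Obox6 ranged from 127 CPM through a median of 342 to 772 in uninjected, from 11.5 through 385 to 812 in IgG, and from 0.775 through 236 to 528 in anti-SMARCA5 embryos. All 3 groups overlapped, and 25 of 31 anti-SMARCA5 libraries lay below the IgG median. The log2 change against IgG was -0.75 (SE 0.34, adjusted p = 0.151). A fit with the replicate block gave -1.14 (adjusted p = 0.0208), a setting in which 25.8% of all genes were called. Against uninjected embryos the change was -0.63 (SE 0.34, adjusted p = 0.15).

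Within replicate 1, Obox6 medians were 365 CPM in uninjected, 496 in IgG and 295 in anti-SMARCA5 embryos. Within replicate 3 they were 274, 316 and 78.7 CPM, and all 7 anti-SMARCA5 libraries lay below the IgG median. The difference in effect between replicates 3 and 1 was -1.03 (SE 0.71, adjusted p = 0.502), a test in which 0.366% of genes were called. The IgG libraries of replicates 1 and 3 differed in Trim21 RNA, so a difference between the controls cannot be told apart from one of effect.

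Obox3 had medians of 25.0 CPM in uninjected (10.9 to 98.0), 29.8 in IgG (3.60 to 119) and 23.9 in anti-SMARCA5 embryos (0 to 79.2). Every uninjected and IgG library had more than 3 counts, against 21 of 31 anti-SMARCA5 libraries, 7 of which had none. The log2 change against IgG was -0.16 (SE 0.51, adjusted p = 0.855), and -1.14 with the replicate block (adjusted p = 0.109).

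Of the 7 anti-SMARCA5 libraries with 0 counts, 4 were among the 7 of replicate 3. Another 2 were among the 7 of replicate 2 and 1 among the 17 of replicate 1. In replicate 2 the anti-SMARCA5 libraries ranged from 0 to 78.4 CPM. In replicate 3 they ranged from 0 through a median of 0 to 7.63 CPM. The IgG libraries of replicate 3 ranged from 3.60 through 10.4 to 45.8, and the uninjected ones from 13.1 through 23.7 to 54.8. The 7 anti-SMARCA5 libraries did not overlap with the 5 uninjected ones, a separation found with anti-SMARCA5 lower for 5.59% of genes. In replicate 1 the medians were 38.7 CPM in anti-SMARCA5, 43.1 in IgG and 26.5 in uninjected embryos. The difference in the effect against IgG between replicates 3 and 1 was -2.71 (SE 0.91, adjusted p = 0.149) and was not called. As for Obox6, a difference between the IgG controls cannot be told apart from one of effect.

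Obox1 had medians of 16.3 CPM in uninjected (1.25 to 43.0), 15.9 in IgG (6.83 to 143) and 15.1 in anti-SMARCA5 embryos (0.508 to 237). The medians over all replicates nearly coincided, but the replicates differed. In replicate 3 the anti-SMARCA5 libraries ranged from 26.3 through a median of 67.4 to 237 CPM and the 5 uninjected ones from 1.25 through 12.6 to 22.1 CPM. These groups did not overlap, with a mean 9.44-fold higher in anti-SMARCA5, a separation in this direction found for 5.8% of genes. The IgG libraries of replicate 3 ranged from 8.83 through 20.1 to 143 CPM, and all 7 anti-SMARCA5 libraries lay above their median. In replicate 1 the medians were 18.2 CPM in uninjected, 14.5 in IgG and 11.1 in anti-SMARCA5 embryos, in the opposite order. Over all replicates its log2 change was 0.55 against IgG (SE 0.45, adjusted p = 0.425) and 1.13 against uninjected embryos (SE 0.52, adjusted p = 0.0899), or -0.12 without replicate 3.

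Obox2 had medians of 13.2 CPM in uninjected (0.819 to 26.3), 10.4 in IgG (0 to 147) and 15.9 in anti-SMARCA5 embryos (0.595 to 157). It was the only member called against uninjected embryos, with a log2 change of 1.26 (SE 0.45, adjusted p = 0.0344), where 27.9% of 10750 genes were called. The call was lost with the replicate block (1.06, adjusted p = 0.052), with library totals only (0.65, adjusted p = 0.253), without replicate 1 (adjusted p = 0.198) and without replicate 3 (0.59, adjusted p = 0.359). Within replicate 3 the medians were 58.6 CPM in anti-SMARCA5 and 17.1 in uninjected embryos, and within replicate 1 they were 12.9 and 13.1 CPM. Against IgG its change was 0.36 (SE 0.48, adjusted p = 0.636).

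Obox5 had medians of 133 CPM in uninjected (64.7 to 224), 125 in IgG (25.6 to 1275) and 97.2 in anti-SMARCA5 embryos (8.29 to 1548). Uninjected embryos varied least, with a coefficient of variation of 34.0% against 142% in IgG and 158% in anti-SMARCA5. The log2 changes were -0.022 against IgG (SE 0.44, adjusted p = 0.978) and 0.58 against uninjected embryos (SE 0.43, adjusted p = 0.299).

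The upper values of Obox5 came from replicate 3. IgG wells A04 and B04 of that replicate had 1275 and 859 CPM, and anti-SMARCA5 wells G05, A05 and C05 had 1548, 1091 and 686 CPM. In these wells Obox6 was at 11.5, 125, 0.775, 15.0 and 25.9 CPM, in the same order, and Obox3 at 4.04, 3.60, 0, 0 and 0 CPM. The pattern of high Obox5 with low Obox3 and Obox6 was therefore present in both injected groups.

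**Figure D3:**
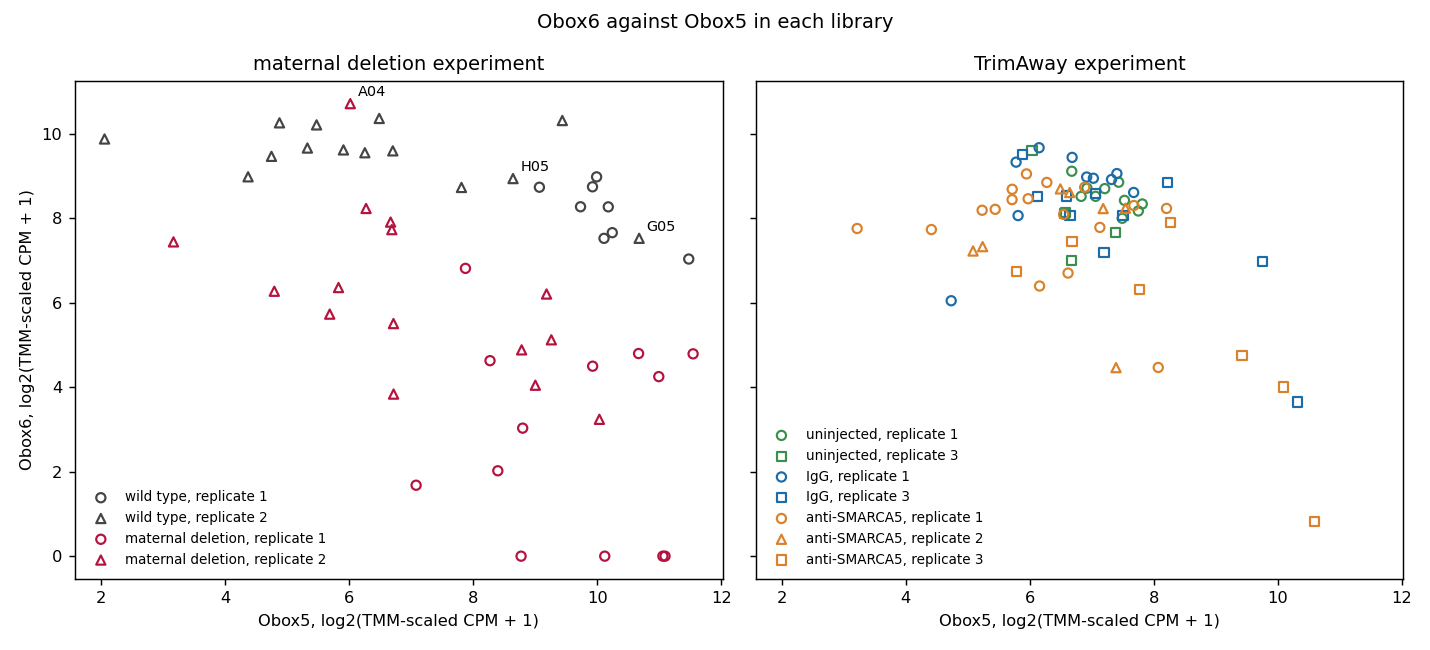
Obox6 against Obox5 in each kept library, both as log2(TMM-scaled CPM + 1), with the deletion experiment on the left and TrimAway on the right, coloured by group and shaped by replicate. Maternal deletion libraries lie below wild type at similar Obox5 except well A04, and 5 replicate 3 wells of the injected groups lie at the right of the TrimAway panel.

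IgG against uninjected embryos gave no call for any Obox gene and 0% of 9915 genes by edgeR, with 1440 genes at an unadjusted p under 0.05 and 207 called by DESeq2. The log2 changes were 0.58 for Obox1, 0.91 for Obox2, 0.037 for Obox3, 0.61 for Obox5 and 0.12 for Obox6, and the lowest adjusted p was 0.408 (Obox2). The anti-SMARCA5 comparisons share their libraries, as do the uninjected ones, so their values are not independent.

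Among the other genes, 1 of 27 tested genome activation factors was called lower and none higher against IgG. Against uninjected embryos 6 were lower and 4 higher. Of the oocyte genes, 1 of 29 was higher against IgG and none lower, with a median log2 change of 0.59 beside 0.037 for all genes. Against uninjected embryos, the comparison in which Obox2 was called, 10 of 29 oocyte genes were higher and 1 lower, with a median of 0.75 beside 0.13 for all genes. The summed oocyte list had medians of 6477 CPM in uninjected, 6509 in IgG and 6835 in anti-SMARCA5 embryos, with highest values of 9062, 35855 and 42819 CPM. Its medians in replicate 3 were 5165, 7742 and 17134 CPM, in the same order, against 6991, 6267 and 5749 CPM in replicate 1. Oocyte RNA was thus high in the anti-SMARCA5 libraries of replicate 3, in which Obox1 was high and Obox3 low. Its part in the Obox values was not tested.

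The effects of TrimAway (anti-SMARCA5 against IgG) and of the deletion were compared in a contrast of all 4 groups, in which 19.2% of 12035 genes were called. Obox3 differed, with a contrast of 3.71 on the log2 scale (SE 0.90, adjusted p = 0.00189), the change being more negative after the deletion. The contrast for Obox6 was 1.71 (SE 0.67, adjusted p = 0.0567), that for Obox1 -1.18 (SE 0.68, adjusted p = 0.215) and that for Obox2 -1.36 (SE 0.72, adjusted p = 0.174). For Obox5 it was -0.090 (SE 0.72, adjusted p = 0.944). The experiments also differ in lane and in the time at which the protein was removed, and these cannot be told apart from the way of removal.

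**Figure D4:**
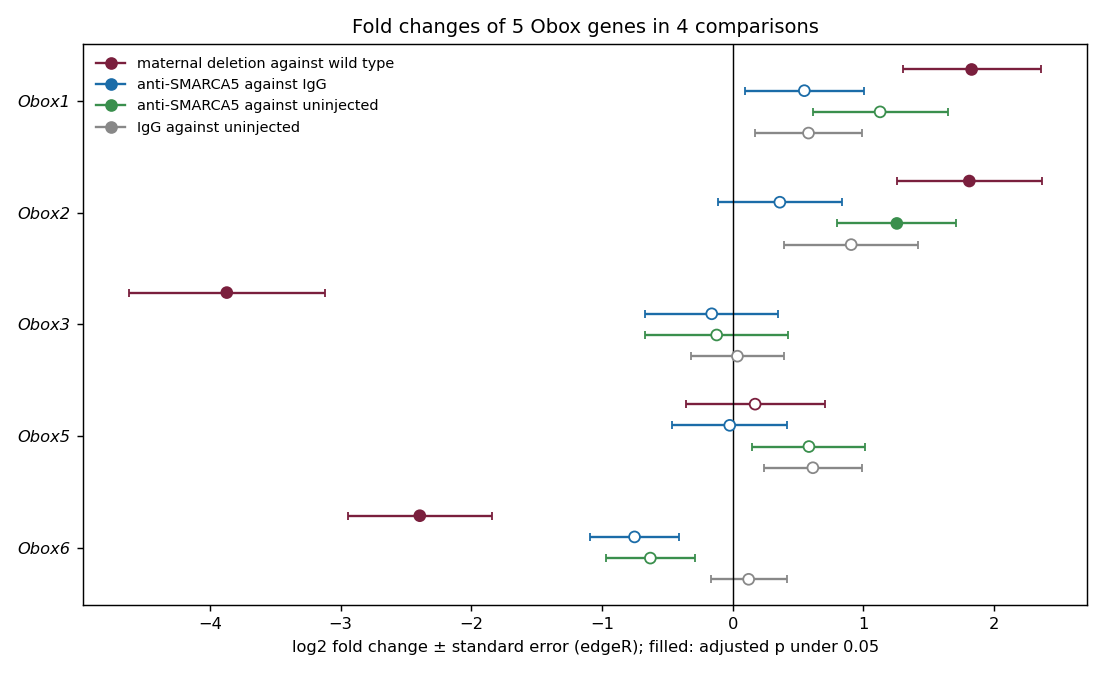
Log2 fold change of each Obox gene with its standard error in 4 comparisons, from edgeR, with filled points where the adjusted p was under 0.05. Filled points are Obox1, Obox2, Obox3 and Obox6 after maternal deletion, and Obox2 for anti-SMARCA5 against uninjected.

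Across embryos, Obox1 and Obox2 varied together, as did Obox3 and Obox6, and these pairs ran opposite to each other. These correlations are over 50 libraries in the deletion experiment and 66 in TrimAway, which share groups, lanes and scaling, and are given as a description. Obox1 and Obox2 had Spearman's rho of 0.84 in the deletion experiment and 0.51 in TrimAway. Obox1 and Obox5 had 0.74 and 0.58, and Obox3 and Obox6 had 0.71 and 0.51. Obox6 against Obox2 had -0.76 and -0.63, and against Obox1 -0.78 and -0.48. Obox5 had -0.49 and -0.20 with Obox6. Obox5 and Obox3, whose upstream stretches are alike, had -0.053 and -0.27, so its rho with each of these was nearer to 0 than that of Obox1.

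Against the summed oocyte list, rho was 0.88 for Obox1, 0.85 for Obox2 and 0.70 for Obox5 in the deletion experiment, against -0.61 for Obox3 and -0.84 for Obox6. In TrimAway the values were 0.73, 0.62, 0.61, -0.50 and -0.54. With the 2-cell stage list, Obox3 had the highest rho of the members in both experiments, 0.73 and 0.78, and Obox6 had 0.62 and 0.34. Obox1 had -0.27 and -0.43 and Obox2 -0.28 and -0.26, while Obox5 had 0.15 in the deletion experiment and -0.38 in TrimAway, with no common sign.

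Over 7976 genes, the closest in pattern to Obox1 were Btg4, Lsm14a and Tcl1b2, with rho of at least 0.75, 0.70 and 0.70 in both experiments. For Obox2 they were Tmem60, Asap1 and Hibadh, at 0.67, 0.67 and 0.65. For Obox5 they were E330034G19Rik, Bcl2l10 and Btg4, at 0.84, 0.75 and 0.75, so Btg4, an oocyte gene needed for clearance of maternal RNA, was near to both Obox1 and Obox5. For Obox3 they were B020004J07Rik, Pabpn1 and Gm20521, at 0.77, 0.77 and 0.77. For Obox6 they were Mki67ip, Timd2 and Mak16, at 0.88, 0.88 and 0.88, the closest likeness of any member.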

How the data were processed

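The authors deposited 2 tables of raw read counts per gene, which per the file headers came from HISAT2 alignments to GRCm38 with spike-in sequences. The submitters' processing notes name Trim Galore 0.6.5, cutadapt 2.3 and HISAT2 2.1.0. Annotation release, strand, duplicates and multiply matching reads are not given in the sources used here. Lines with the same identifier were summed, and libraries under 100000 counts were left out (19 of 135 embryo libraries, 116 kept). No pair of kept libraries agreed within sampling noise.

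Counts were tested with edgeR 4.0.16 in R 4.3.3 (TMM, filterByExpr, robust quasi-likelihood F test) over all genes, with Benjamini-Hochberg adjustment and a threshold of 0.05. DESeq2 1.42.0 was an alternative. In a simulated deletion comparison (8518 genes), 12% of changes of 1 and 67% of changes of 2 on the log2 scale were recovered. For anti-SMARCA5 against IgG (10447 genes), the shares were 28% and 88%. Each simulation changed 100 genes by each size and held no shift between replicates. In the real deletion comparison 56.6% of genes were called, so recovery there can differ. Coding sequences were aligned with MAFFT 7.526.

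The design text ties a replicate number to a pool of embryos. Deviations of same-numbered group means correlated across genes at 0.54 for deletion and wild type, 0.59 for anti-SMARCA5 and IgG, 0.43 for IgG and uninjected and 0.08 for anti-SMARCA5 and uninjected. Blocked values are printed where they change a call.

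All 5 members were described. From each list, up to 4 genes with the highest mean CPM among tested genes could be named, and for each member the 3 genes with the highest Spearman correlation, taken as the lower of both experiments, among genes with a mean of 10 CPM or more. The members and lists were chosen with earlier results of these data known.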

Additional observations from a re-analysis of the deposited data

Results flagged for a closer look

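A library far from the others was looked for in 35 sets, each of 1 member in a group and replicate of 4 to 10 libraries. Of these sets, 6 had one. Independent sets would give about 5% by chance. The members' sets share libraries, and Obox1 and Obox2 share reads, so that share is no yardstick here. Wild-type well C07 of replicate 1 was highest for Obox1 (341 CPM, next 103), Obox2 (140 CPM, next 60.6) and Obox5 (2851 CPM, next 1212). IgG well H09 of replicate 1 was highest for Obox3 (119 CPM, next 65.6). Uninjected wells D09 of replicate 1 and F04 of replicate 3 were highest for Obox3 (98.0 CPM, next 44.1) and Obox6 (772 CPM, next 281).

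The effect of the deletion on Obox3 differed between replicates 2 and 1 by 7.72 on the log2 scale (edgeR interaction, adjusted p = 0.0444), and its effect differed from that of TrimAway by 3.71 (adjusted p = 0.00189).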

How the results depend on the processing

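Of 230 alternative values for the members, 200 kept their direction and side of the threshold. After maternal deletion Obox1, Obox2, Obox3 and Obox6 were called under all 10 alternatives. Leaving out replicates gave 1.49 to 1.99, 1.40 to 2.11, -8.60 to -2.75 and -3.97 to -1.96, in the same order. The -8.60 for Obox3 is from replicate 1 alone, with 0 counts throughout the deletion group, and is no measure of a fold. The 3 wells and the block together were chosen after seeing the data. Uncalled values changed sign as follows, and the cause was not tested. Library totals only gave Obox5 -0.099 (deletion) and -0.060 (anti-SMARCA5 against uninjected), and for IgG against uninjected Obox6 -0.092 and Obox3 -0.22. A depth minimum of 1000 gave Obox5 0.074 (against IgG), and Obox6 -0.017 and Obox3 -0.053 (IgG against uninjected); one of 500000 gave Obox3 0.085 (against uninjected) and, for the deletion effect between replicates, Obox1 -0.62, Obox5 -0.72 and Obox2 -0.10. The replicate block gave Obox5 0.28 (against IgG) and 0.33 (TrimAway against deletion), and called Obox6 against IgG (-1.14).

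Leaving out replicates gave Obox5 -0.14 to 0.17 (deletion), -0.030 to 0.16 (against IgG), -0.60 to 1.71 (against uninjected) and -0.55 to 1.60 (IgG against uninjected). For Obox1 it gave -0.12 to 2.52 (against uninjected) and -0.47 to 1.73 (IgG against uninjected), for Obox3 -1.01 to 0.19 and -0.82 to 0.60, for Obox6 -0.13 to 0.36 (IgG against uninjected) and for Obox2 0.59 to 1.75 (against uninjected). Obox2 against uninjected lost its call with library totals only (0.65), a depth minimum of 500000 (1.19) and the replicate block (1.06), and the deletion effect on Obox3 between replicates lost its call at 500000 (8.86). The block changed no other member's call.

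Calls over all genes moved as follows. Without a low-count filter, which tests more genes, they were 10416 (deletion, against 4825), 3010 (anti-SMARCA5 against IgG, against 317), 6184 (against uninjected, against 2999), 881 (IgG against uninjected, against 0), 678 and 136 (replicate contrasts, against 65 and 37) and 4285 (TrimAway against deletion, against 2315). Against IgG, library totals only gave 64, DESeq2 1029, depth minimums of 1000 and 500000 gave 661 and 150, and the replicate block 2691. DESeq2 gave 207 for IgG against uninjected, the 500000 minimum gave 1 for the deletion contrast, and the block gave 1404 for TrimAway against deletion. Leaving out replicates gave 2801 to 3879 (deletion), 0 to 591 (against IgG, 0 without replicate 1), 1 to 2921 (against uninjected, 1 without replicate 1) and 0 to 1 (IgG against uninjected). With library totals only, 2199 of the deletion calls were higher and 2623 lower, against 2580 and 2245 with TMM; against IgG 17 and 47, against 181 and 136; and against uninjected 409 and 1874, against 1885 and 1114. Summed Obox levels are given in the report.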
